A study of Mus musculus with 36 samples.

Results

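Genes of the primary cilium were followed in kidneys of mice that lose Pkd1 or Pkd2 in the collecting duct. The set held 42 genes listed for their function, namely the intraflagellar transport (IFT) trains and their kinesins, the BBSome with its chaperonins and Arl6, the ciliary GTPases Arl3 and Arl13b, the MKS and NPHP modules of the transition zone, the inversin compartment, and Tulp3 and Dcdc2a. All 42 had a row among the 20454 gene symbols of the count table. Each gene was represented by the RefSeq transcript with the highest mean count, and genes under 10 counts in most of the 36 libraries were left out, which kept 33 genes.

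C57BL/6 mice gave kidneys 1, 3 or 7 days after birth (P1, P3 and P7), with 3 mice in each of 12 groups. Wild-type (WT) mice were Pkd1f/f or Pkd2f/f, and knockout (KO) mice were Pkd1f/f:HoxB7-Cre or Pkd2f/f:HoxB7-Cre. The WT mice were littermates, although the sources do not say which mice shared a litter. Both genotypes therefore carried the floxed alleles, and only the KO mice carried the Cre transgene. HoxB7-Cre acts in the collecting duct, whereas RNA came from kidney tissue with all of its cell types, so that fewer cells of a type and less RNA per cell cannot be told apart here.

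The primary cilium is a single sensory projection of the tubule cell, and the polycystins encoded by Pkd1 and Pkd2 reside in its membrane. It has no ribosomes of its own, so its parts are carried in and out by IFT trains, IFT-B outward with the heterotrimeric kinesin and IFT-A back with dynein. The BBSome is a coat that ferries membrane proteins with these trains, and the transition zone at the base acts as the gate. Inherited faults in many of these genes cause cystic kidneys, as in nephronophthisis, Bardet-Biedl and Meckel syndromes.

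Library totals ran from 7179152 to 15850818 counts with a median of 13143336. The deleted gene, counted over its whole transcript with the exons that remain, checked the labels only in part. Pkd1 had 261 ± 28.3 CPM, the read count scaled to library size, in KO and 243 ± 13.0 in WT kidneys of the Pkd1 model at P7 (SD, n = 3 each). Pkd2 fell in the Pkd2 model at P7, from 326 ± 6.18 to 265 ± 7.26 CPM (SD, n = 3 each, adjusted p = 0.0115 in edgeR's test). Counts from the Y-linked genes Ddx3y, Kdm5d, Eif2s3y and Uty were present in 3 of 3 KO and 0 of 3 WT kidneys of the Pkd1 model at P7, so sex and genotype cannot be told apart there. In the Pkd2 model at P7 they were present in 3 of 3 KO and 2 of 3 WT kidneys. At P1 their summed level was at most 0.155 CPM in KO and 0.421 to 347 in WT kidneys of the Pkd1 model. In the Pkd2 model KO kidneys had at most 0.187 CPM at P1 and 0.0808 at P3, while the highest WT kidney had 347 and 303. Comparisons of the KO effect between P7 and P1 therefore also span a shift in sex. The second WT library of the Pkd2 model at P3 stood apart. Its group's summed stromal markers ran from 2900 to 8920 CPM, against 4680 to 5820 in the matching KO group.

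Of the 33 genes, 32 had at least 10 counts in every library, and Tctn1 was the exception. Between the lowest and the highest of the 36 libraries the CPM of 23 genes differed by less than 2-fold, and the median ratio was 1.75. Dcdc2a, Ahi1 and Kif3b had the widest ranges among the genes without a zero, with ratios of 5.93, 8.34 and 2.78.

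Levels of different genes are compared per kilobase of transcript, as RPKM averaged over all libraries. Arl3, a small GTPase that releases lipidated cargo inside the cilium, was highest at 74.5 RPKM, and its relative Arl13b was at 9.09. Among the IFT-B genes Ift20, a subunit that also works at the Golgi, was highest at 52.6 RPKM and the GTPase-like subunit Ift22 was lowest at 9.85. The IFT-A subunit Ift140 had 11.2 RPKM and the kinesin motor subunit Kif3b had 14.0.

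In the BBSome group Arl6, which recruits the coat to membranes, was highest at 15.6 RPKM and Bbs10, a chaperonin-like gene needed for its assembly, was lowest at 3.79. In the MKS module Mks1 had 14.0 and Tctn1 0.145 RPKM. The NPHP module was low throughout, from 2.90 RPKM for Nphp4 to 3.57 for Rpgrip1l, both scaffold proteins of the gate. The kinase Nek8 had 19.4 RPKM. Tulp3, an adaptor that links IFT-A to membrane cargo, had 29.7 RPKM, and the doublecortin-domain protein Dcdc2a, which binds microtubules of the cilium, had 33.1.

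**Figure D1:**
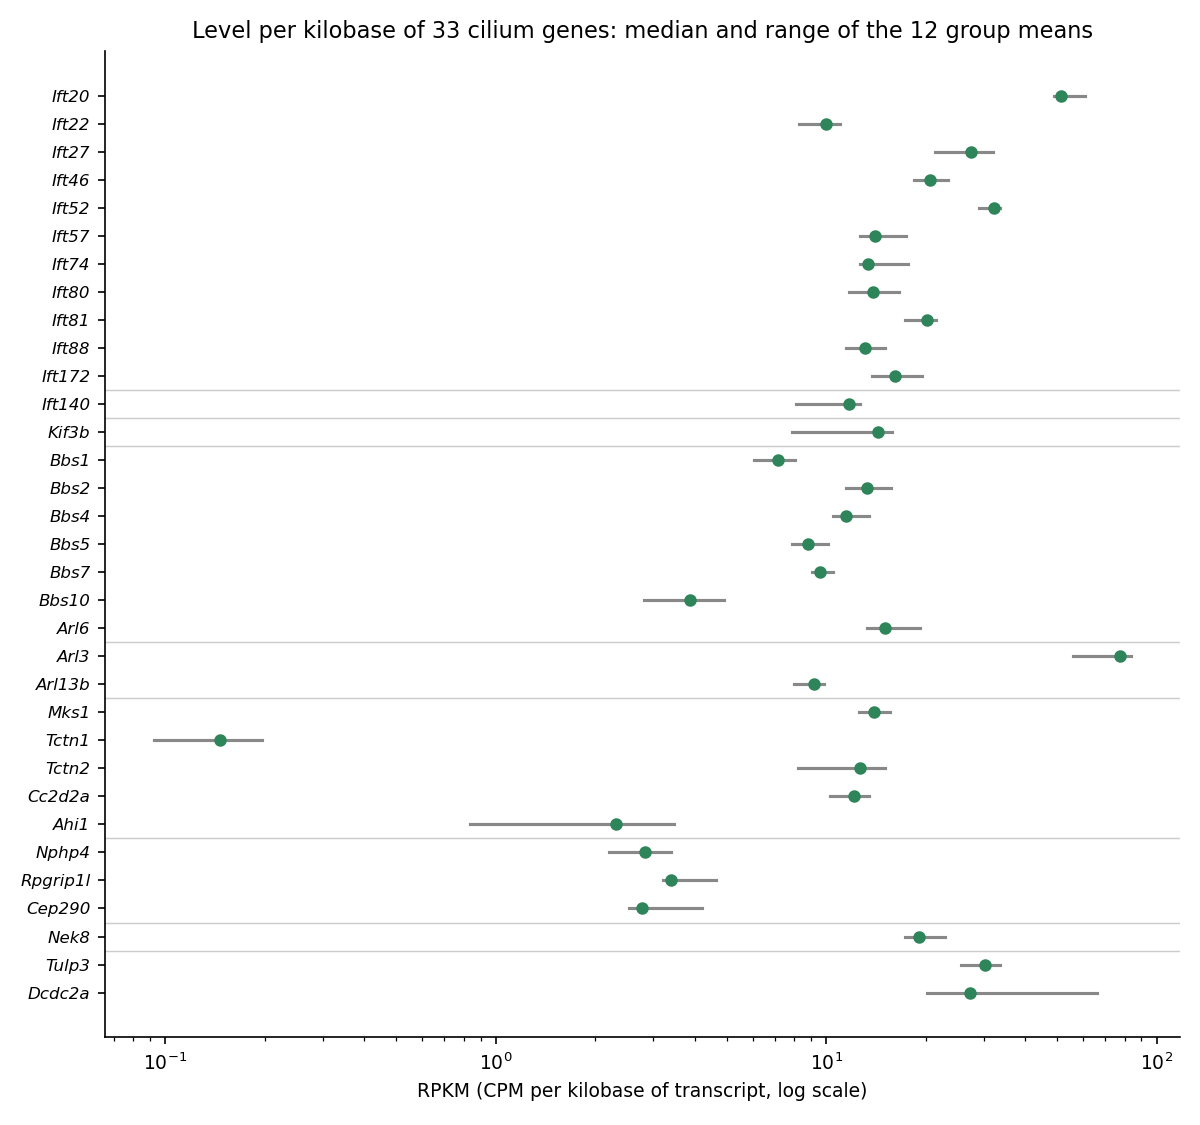
Level of each of the 33 cilium genes, as CPM per kilobase of transcript on a log axis. Points mark the median and lines the range of the 12 group means, and grey rules separate the role groups. Of the 33 genes 18 lay between 10 and 30 RPKM on average, with Arl3 at the top and Tctn1 at the bottom.

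Low counts removed Ift43 and Ift122 of IFT-A, the kinesins Kif3a and Kif7, Bbs9, Bbs12, Tmem67, Tmem216 and Invs, 9 genes in all. Of the members with 1 row in the table, 30 of 31 were kept. Of the 11 with 2 or more rows, one for each RefSeq isoform, only Ift74, Ahi1 and Dcdc2a were kept. Among all genes 64.0% of 15728 genes with 1 row and 26.4% of 4726 genes with more rows reached this minimum. The authors counted with HTSeq under default options, which set aside reads that match more than 1 feature. Tmem67, the exception with 1 row, was listed at 0 in every library, which this counting of isoforms does not cover. Low counts of the other 8 genes are no measure of their expression, and the share of reads lost for Ift74, Ahi1 and Dcdc2a was not tested.

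RFX factors, the transcriptional regulators of cilium genes, bind the X-box, an inverted repeat with arms related to GTTGCC. RefSeq promoter windows of GRCm38.p6, 250 bases before to 50 after the start site, were searched for the X-box on both strands, with a spacer of 0 to 3 bases between the arms. It was found in 5 of the 38 listed members with a window (13.2%) and in 1.75% of 27025 genes in all. Those members were Ahi1, Bbs1, Ift57, Tctn1 and Tctn2. The arm GTTGCC, counted on either strand and also where it lies inside an X-box, was present in 15 of the 38 (39.5%) and in 14.1% of all genes. A match in these letters is a description and not a shown binding site.

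The X-box matches are printed for the members that held one, which were a minority of the set. Each window is read 5′ to 3′ on the strand of the gene, with the X-box in capitals. The Ift57 repeats lay at chr16:49699199-49699228 and chr16:49699226-49699254, 87 and 60 bases before the start site, and the one of Tctn2 at chr5:124598679-124598708, 62 bases before it. Those of Bbs1 (chr19:4906605-4906634), Ahi1 (chr10:20952560-20952589) and Tctn1 (chr5:122264411-122264432) lay within the 50 bases after the start site of the promoter table. That start is the one used for all positions here, and it can differ from the end of the gene's own coordinates, as it does for Ahi1, Tctn1 and Bbs1.
Ift57 upstream repeat: cgggtctgGTTGCCGTGGTGACcggctgcc
Ift57 downstream repeat: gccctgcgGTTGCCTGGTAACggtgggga
Tctn2: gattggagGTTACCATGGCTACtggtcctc
Bbs1: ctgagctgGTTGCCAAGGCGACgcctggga
Ahi1: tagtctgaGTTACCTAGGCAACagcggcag
Tctn1: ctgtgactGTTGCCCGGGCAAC

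At P1 and P3 no cilium gene passed the test between KO and WT kidneys. In edgeR's quasi-likelihood test with adjustment over all transcripts, 0 of 33 genes passed in the Pkd1 model at P1, where 0.0% of all 12527 transcripts tested passed, and 0 of 33 at P3, where 0.00798% passed. In the Pkd2 model 0 of 33 passed at P1 and at P3, with 0.0% of 12633 transcripts on each day. At an unadjusted p under 0.05 there were 0 genes at P1 and 2 at P3 with Pkd1 deletion, where 1.25% and 14.0% of all transcripts had such a p. With Pkd2 deletion there were 2 at P1 and 0 at P3, where the shares were 5.6% and 4.47%. DESeq2 called 0 of the genes in each of the 4 comparisons. Over all transcripts it called 2 at P1 and 248 at P3 for Pkd1, and 33 and 38 for Pkd2. The 95% interval of the log2 fold change lay within 0.5 of zero for 25 genes at P1 and 29 at P3 with Pkd1 deletion, against 50.2% and 55.4% of all transcripts. For Pkd2 it did so for 30 and 28 genes, against 58.1% and 50.9%.

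By P7, 3 of the 33 genes had changed in at least one model. In the Pkd1 model Dcdc2a rose and Kif3b fell, 2 of 33 genes where 13.5% of 12527 transcripts passed. Dcdc2a and Tulp3 rose in the Pkd2 model, 2 of 33 genes where 14.1% of 12633 transcripts passed. The shares over all transcripts rested on single libraries. For Pkd1 the 1686 calls became 156 without WT replicate 1, 972 without WT replicate 2, 3191 without WT replicate 3, and 457, 343 and 992 without KO replicates 1, 2 and 3. For Pkd2 the 1776 calls became 667 without WT replicate 1, and 907 and 904 without KO replicates 2 and 3. The median log2 fold change of the 33 genes was -0.04 in the Pkd1 and 0.01 in the Pkd2 model, against 0.00 over all transcripts in both, and its median size without sign was 0.17 and 0.09, against 0.34 and 0.19.

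**Figure D2:**
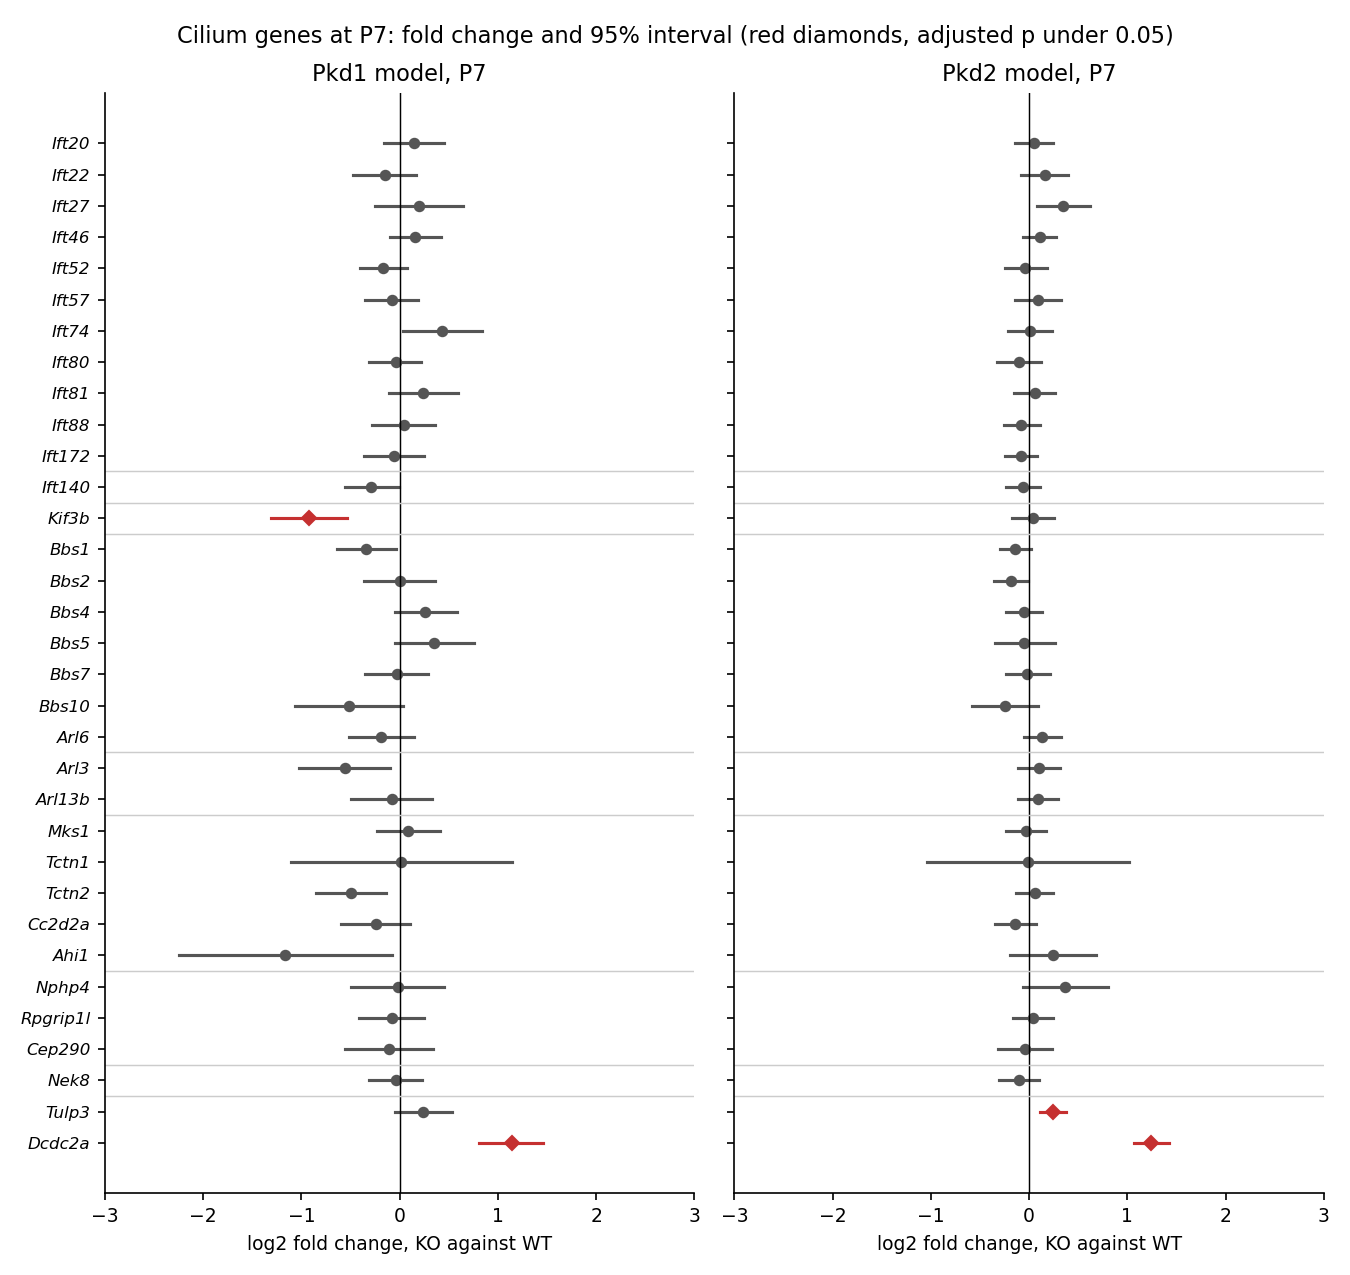
Log2 fold change of the 33 cilium genes between KO and WT kidneys at P7, in the Pkd1 (left) and Pkd2 (right) model. Lines are 95% intervals, red diamonds are genes with an adjusted p under 0.05, and grey rules separate the role groups. Dcdc2a stands at 1.14 and 1.24, Kif3b at -0.92 on the left and 0.04 on the right, and Tulp3 at 0.24 in both.

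Dcdc2a (NM_177577, chr13:25055273-25210706) was the one gene of the set that passed the test in both models, as higher in KO. In the Pkd1 model at P7 it had 188, 215 and 196 CPM in the WT kidneys and 493, 464 and 358 in the KO kidneys. With Pkd2 deletion the values were 170, 175 and 194 CPM for WT and for KO 417, 460 and 394 CPM. Every KO kidney at P7 lay above every WT kidney, with no overlap in either model. The log2 fold change was 1.14 (SE 0.14, adjusted p = 0.00691) with Pkd1 and 1.24 (SE 0.08, adjusted p = 0.000251) with Pkd2 deletion, which correspond to 2.20-fold and 2.37-fold.

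At P1 and P3 Dcdc2a did not pass in either model. KO kidneys of the Pkd1 model held 166, 176 and 197 CPM at P1 and 195, 188 and 164 at P3, and those of the Pkd2 model 150, 164 and 203 at P1 and 155, 162 and 183 at P3. These values overlapped the WT values of the same days, which ran from 184 to 203 CPM in the Pkd1 model and from 83.1 to 178 in the Pkd2 model. The value of 83.1 came from the WT library at P3 that stood apart. The KO effect on Dcdc2a at P7 exceeded that at P1 by 1.22 on the log2 scale in the Pkd1 model (SE 0.16, adjusted p = 0.000692). The Pkd1 result did not pass with a Y-linked term (1.23, adjusted p = 0.663). For Pkd2 the difference was 1.25 (SE 0.25, adjusted p = 0.0197).

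Of the 33 genes, 2 passed this test of the KO effect between days in the Pkd1 model, where 7.75% of all transcripts passed, and 1 in the Pkd2 model, where 1.3% passed. The Pkd2 result for Dcdc2a passed no longer with the replicate number as a block (log2 difference 1.26, adjusted p = 0.0507) or a Y-linked term (1.18, adjusted p = 0.0594). It also ended without WT replicate 2 or KO replicate 2 at P1, WT replicate 1 at P7 or KO replicate 2 at P7, with adjusted p values of up to 0.0558.

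Kif3b (NM_008444, chr2:153291395-153333390) encodes a motor subunit of kinesin-II, which pulls IFT-B trains toward the tip. In the Pkd1 model at P7 it had 90.7, 90.6 and 70.9 CPM in WT and 48.8, 35.0 and 49.3 in KO kidneys. All 3 KO kidneys lay below all WT kidneys, and below every one of the other 33 libraries of the series. The log2 fold change was -0.92 (SE 0.17, adjusted p = 0.0164), and -0.60 with GC content and length offsets (adjusted p = 0.0256). Kidneys of the Pkd2 model at P7 had 93.2, 86.1 and 80.5 CPM in WT and 88.8, 97.3 and 80.5 in KO, and the groups overlapped. There the log2 fold change was 0.04, with a 95% interval from -0.17 to 0.25.

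The difference of the Kif3b effect between the models, Pkd1 minus Pkd2, was -0.95 on the log2 scale (SE 0.20, 95% interval -1.39 to -0.51, unadjusted p = 0.000476). It did not pass adjustment over all 12343 transcripts in edgeR (adjusted p = 0.12, range 0.0114 to 0.301 when single libraries were left out), and it passed in DESeq2 (adjusted p = 0.00255). In that comparison of models 0 of the 33 genes and 0.0% of all transcripts passed in edgeR, while 5 of the genes and 17.3% of all transcripts had an unadjusted p under 0.05. DESeq2 called 1 of the genes and 406 transcripts in all. Within the Pkd1 model the Kif3b effect was lower at P7 than at P1 by a log2 difference of -0.85 (SE 0.18, adjusted p = 0.0126). That difference was -0.57 with the GC and length offsets (adjusted p = 0.0188), and it did not pass with a Y-linked term (-0.59, adjusted p = 0.883). The KO call at P7 was lost without WT replicate 1 (adjusted p = 0.0737) or KO replicate 2 (adjusted p = 0.0509).

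Since sex and genotype coincide in the Pkd1 model at P7, the libraries outside the P7 KO groups were read by their Y-linked counts. Kif3b ran from 71.6 to 93.2 CPM in 12 such libraries with Y-linked counts and from 69.6 to 90.7 in 18 without. Dcdc2a ran from 163 to 203 CPM with and from 83.1 to 215 without them. The P7 levels of the Pkd1 KO kidneys lay outside these ranges, which pool both models and all days. No Pkd1 group at P7 held both kinds of library, so sex and genotype remain confounded there. A fit of all 18 Pkd1 libraries that added a term for Y-linked reads called neither gene at P7, with log2 fold changes of -0.77 for Kif3b (adjusted p = 0.193) and 1.13 for Dcdc2a (adjusted p = 0.0553). That term rested on the WT kidneys at P1, the only Pkd1 group that held both kinds of library.

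Tulp3 (NM_011657, chr6:128321140-128355873) moved least of the 3 genes. At P7 the Pkd2 model had 84.8, 90.4 and 84.4 CPM in WT and 101, 102 and 104 in KO kidneys, without overlap. The log2 fold change was 0.24 (SE 0.06, adjusted p = 0.032). The call was lost in 5 of 6 fits that left out 1 library, all but that without WT replicate 2, with adjusted p values of up to 0.128, and also with the replicate number as a block (adjusted p = 0.0682) or GC content and length offsets (adjusted p = 0.0733). The Pkd1 model had 98.0, 86.0 and 104 CPM in WT and 115, 125 and 101 in KO. These groups overlapped, and the same log2 fold change of 0.24 did not pass (SE 0.13, adjusted p = 0.221).

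**Figure D3:**
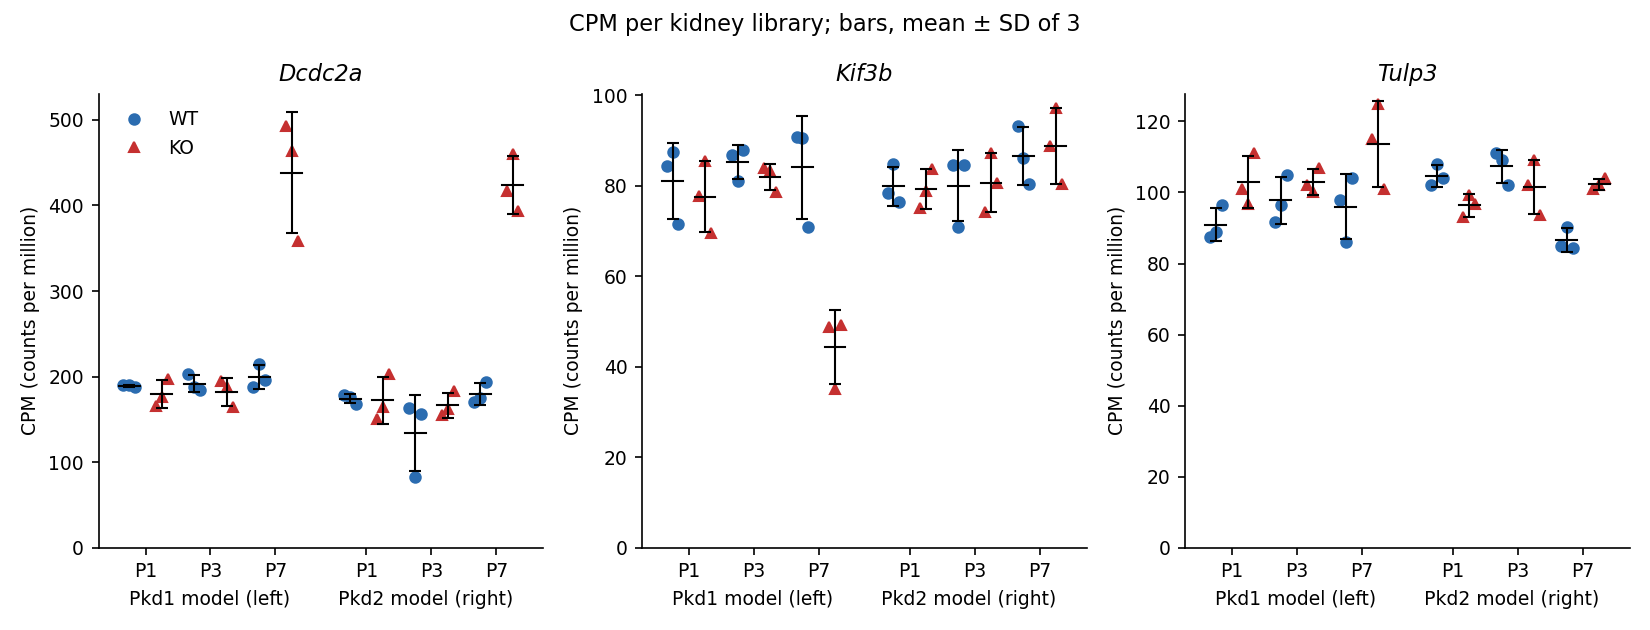
CPM of Dcdc2a, Kif3b and Tulp3 in each of the 36 kidney libraries, by model, day and genotype. Circles are WT and triangles KO kidneys, and black bars give the mean ± SD of 3. Dcdc2a separates from WT at P7 in both models, with KO values from 358 to 493 CPM, and Kif3b at P7 in the Pkd1 model, with KO values from 35.0 to 49.3 CPM.

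None of these 3 genes held the X-box or the arm GTTGCC in its RefSeq window. At P7, 0 of the 14 kept genes with the arm and 2 of the 17 with a window and neither motif passed in each model, beside 13.5% and 14.1% of all transcripts, and with counts this small nothing is read from the split. The last 100 bases before the start site of the promoter table, read 5′ to 3′ on the strand of the gene, are given to set these promoters beside those above. They lie at chr13:25055904-25056003 for Dcdc2a, chr2:153291316-153291415 for Kif3b and chr6:128355852-128355951 for Tulp3, with GC contents of 63.0%, 58.0% and 66.0%. These start sites lie inside the gene coordinates given above, so each window overlaps the gene, that of Dcdc2a wholly.
Dcdc2a: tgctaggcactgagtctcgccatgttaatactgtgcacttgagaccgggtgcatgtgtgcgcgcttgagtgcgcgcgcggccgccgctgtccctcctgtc
Kif3b: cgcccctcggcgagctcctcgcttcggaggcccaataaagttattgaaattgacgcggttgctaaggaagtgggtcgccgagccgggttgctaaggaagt
Tulp3: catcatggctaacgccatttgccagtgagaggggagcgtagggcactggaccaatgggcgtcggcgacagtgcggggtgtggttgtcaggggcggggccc
The absence of these letters says nothing of the factors that act there.

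No gene of the IFT trains passed at P7. Of the 11 IFT-B genes 0 passed in either model, where 13.5% (Pkd1) and 14.1% (Pkd2) of all transcripts passed. In a group this small 0 calls lie near those shares. The log2 fold changes of the IFT-B genes ran from -0.17 to 0.43 (Pkd1) and from -0.10 to 0.35 (Pkd2). Ift88, the subunit whose loss shortens cilia and gives cystic kidneys, had 0.04 and -0.08 (SE 0.14 and 0.08). The extremes were Ift74 in the Pkd1 model (0.43, adjusted p = 0.128) and the GTPase subunit Ift27 in the Pkd2 model (0.35, adjusted p = 0.0859). Ift140 had -0.29 (adjusted p = 0.136) and -0.06.

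The BBSome group was likewise without a call, beside 13.5% (Pkd1) and 14.1% (Pkd2) of all transcripts. Its 7 genes ran from -0.52 to 0.35 on the log2 scale in the Pkd1 model and from -0.25 to 0.13 in the Pkd2 model, with Bbs10 lowest in both. Bbs1, which binds Arl6, had -0.34 (adjusted p = 0.111) and -0.14. Of the ciliary GTPases, Arl3 had 72.6, 61.7 and 73.5 CPM in WT and 37.7, 40.1 and 63.1 in KO kidneys of the Pkd1 model, and these overlapped. Its log2 fold change of -0.56 did not pass in edgeR (adjusted p = 0.0928) and was 0.10 in the Pkd2 model.

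At the gate, 0 of 5 genes of the MKS module and 0 of 3 of the NPHP module passed in either model. Over all transcripts 13.5% (Pkd1) and 14.1% (Pkd2) passed, and nothing is read from counts this small. Tctn2, a membrane protein of the MKS module, had 39.6, 44.1 and 34.8 CPM in WT and 24.6, 27.1 and 32.1 in KO kidneys of the Pkd1 model. These did not overlap, and the log2 fold change was -0.50 (adjusted p = 0.0659). Ahi1, the Joubert syndrome gene of the same module, had the widest interval in the Pkd1 model among the genes with at least 10 counts in every library, with a log2 fold change of -1.17 (SE 0.47, adjusted p = 0.126) and 0.24 in the Pkd2 model. Its WT values of 10.1, 13.1 and 4.11 CPM overlapped the KO values of 5.13, 2.19 and 4.82.

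Cep290, the large protein that tethers the gate to the membrane, had -0.11 and -0.04. Nek8 had -0.04 and -0.10 (SE 0.12 and 0.09). DESeq2 called Arl3 and Tctn2 in addition to Kif3b and Dcdc2a in the Pkd1 model, and without WT replicate 3 edgeR called Bbs1, Tctn2 and Ahi1 in addition, 5 genes in all.

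For each gene the interval describes the difference between KO and WT kidney tissue at P7, which in the Pkd1 model coincides with sex. The 95% interval lay within 0.5 of zero on the log2 scale for 15 of 33 genes in the Pkd1 model, against 21.6% of all transcripts, and for 27 of 33 in the Pkd2 model, against 47.2%. It lay within 1 for 27 and 31 genes, against 59.1% and 72.2% of all transcripts. Whether the levels of the genes bear on these shares was not tested.

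Markers of several cell types differed in level between KO and WT kidneys at P7. Of 7 principal cell markers of the collecting duct 4 were tested, and Avpr2, Scnn1b and Fxyd4 were under 10 counts in most libraries. Their summed level was 941 to 1080 CPM in WT and 363 to 510 in KO kidneys of the Pkd1 model, and 847 to 1250 and 476 to 558 in the Pkd2 model. Of the 4 tested, 3 passed as lower in KO in each model, where 13.5% (Pkd1) and 14.1% (Pkd2) of all transcripts passed. Of the intercalated cell markers 5 of 5 passed as lower in both models. Their summed level was 323 to 379 CPM in WT and 158 to 209 in KO in the Pkd1 model, and 305 to 393 and 195 to 234 in the Pkd2 model. Of the proximal tubule markers 5 of 6 (Pkd1) and 6 of 6 (Pkd2) passed as lower. Of the leukocyte markers 1 of 5 and 3 of 5 passed as higher. Whether these shifts have a part in the levels of Dcdc2a, Kif3b and Tulp3 was not tested.

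Few cilium genes passed with age in WT kidneys. Between P1 and P7, 1 of 33 genes passed among Pkd1 mice, where 17.9% of all transcripts passed, and 3 of 33 in the Pkd2 model, where 19.2% passed. The median log2 change was 0.03 and 0.07, against 0.01 and -0.01 over all transcripts.

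Nek8, a kinase of the inversin compartment linked to nephronophthisis, rose in the Pkd1 model from 50.8, 53.7 and 45.6 CPM at P1 to 61.8, 65.1 and 65.7 at P7. The log2 change was 0.36 (SE 0.10, adjusted p = 0.037), and none of the 9 fits with 1 library removed kept the call, with adjusted p values from 0.0537 to 0.0906. Y-linked counts were present in 2 of 3 of these WT kidneys at P1 and 0 of 3 at P7, and with a Y-linked term the Nek8 change was 0.26 (adjusted p = 0.363). For Pkd2 mice the Nek8 value was 0.11, which did not pass.

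Among Pkd2 mice, whose WT kidneys held Y-linked counts in 1 of 3 at P1 and 2 of 3 at P7, Bbs2, a core BBSome subunit, rose from 35.8, 33.8 and 37.1 CPM to 47.4, 47.3 and 48.1, a log2 change of 0.40 (SE 0.09, adjusted p = 0.0137). Ift140 fell from 66.2, 69.4 and 74.1 CPM to 59.8, 54.8 and 55.3, a log2 change of -0.32 (SE 0.07, adjusted p = 0.0127). Tulp3 fell from 102, 108 and 104 CPM to 84.8, 90.4 and 84.4, a log2 change of -0.29 (SE 0.06, adjusted p = 0.00968). The P1 and P7 values of these genes did not overlap. Without WT replicate 2 of P1 none of the 3 passed, with adjusted p values of 0.0537, 0.0607 and 0.0683, and Arl6 passed instead. The call of Ift140 was also lost without WT replicate 3 of P1 or 2 of P7, and that of Tulp3 without WT replicate 1 of P7. The difference of these age changes between the models was not tested.

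**Figure D4:**
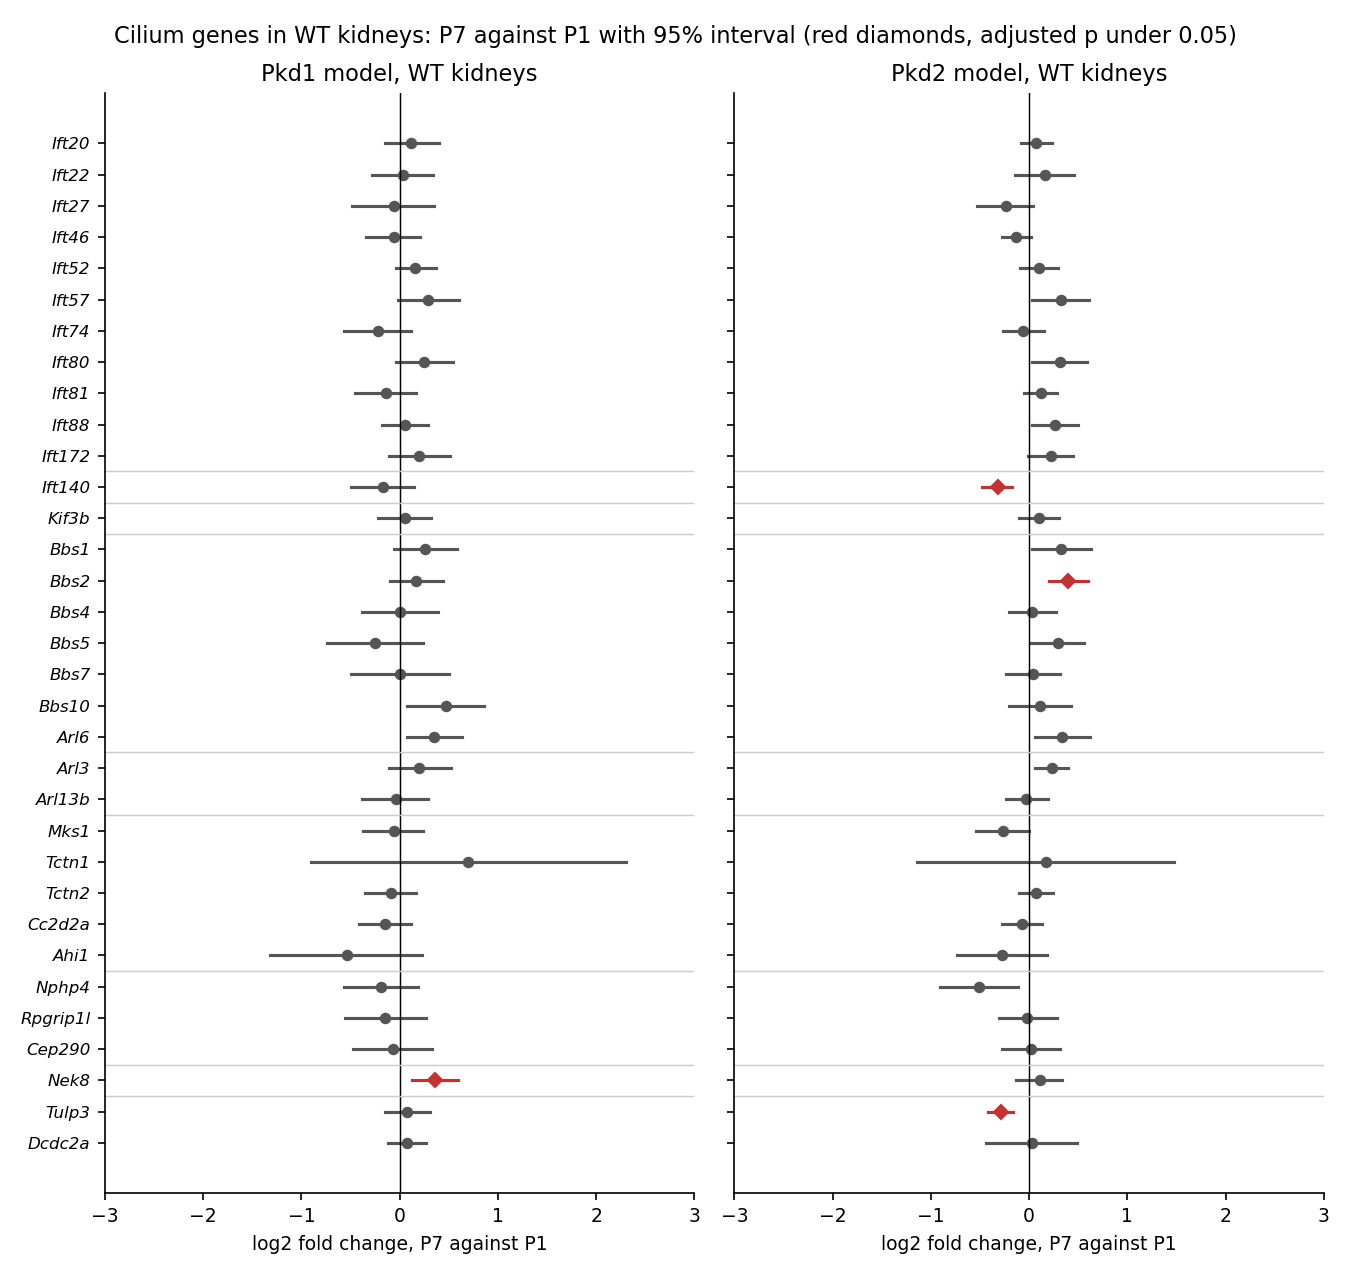
Log2 change of the 33 cilium genes in WT kidneys from P1 to P7, in the Pkd1 (left) and Pkd2 (right) model, with 95% intervals. Red diamonds are genes with an adjusted p under 0.05, which are Nek8 on the left and Bbs2, Ift140 and Tulp3 on the right. All but Tctn1 and Ahi1 on the left and Nphp4 on the right lay within 0.5 of zero.

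Wider cilium lists were read beside the set. For each list below, the share of all transcripts that passed at P7 was 13.5% (Pkd1) and 14.1% (Pkd2). Single genes of these lists were not followed through the alternative fits, and sex coincides with genotype in the Pkd1 model at P7. Of 14 other IFT and motor genes tested 0 passed at P7 with Pkd1 deletion and 1 passed with Pkd2 deletion, the IFT-B subunit Ttc26, chosen after its values were seen, which rose by 0.41 on the log2 scale (adjusted p = 0.0436). Of 7 other BBSome and trafficking genes and 15 other transition zone and basal body genes 0 passed in either model. Their median log2 fold changes ran from -0.03 to 0.10.

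Among the ciliogenesis transcription factors Foxj1, the master regulator of motile cilia, rose in both models at P7. It had 8.35, 7.61 and 11.6 CPM in WT and 25.2, 17.8 and 17.1 in KO kidneys of the Pkd1 model, and 9.25, 9.02 and 8.84 in WT and 19.0, 20.3 and 15.7 in KO kidneys of the Pkd2 model. The groups did not overlap, and the log2 fold changes were 1.13 (SE 0.24, adjusted p = 0.0259) and 1.02 (SE 0.14, adjusted p = 0.00383). Glis3, chosen after its values were seen, fell in the Pkd1 model (adjusted p = 0.0478), from levels under 1 CPM in all WT kidneys, and Rfx1, Rfx5 and Rfx7, also named after their values were seen, did not pass in either model.

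Motile cilium genes had 1 call in each model, and the gene was not the same. Of 11 motile cilium genes tested 1 passed in the Pkd1 model, the dynein gene Dnah11, which rose from 12.5, 19.5 and 18.6 CPM in WT to 31.5, 33.5 and 30.7 in KO, a log2 fold change of 0.92 (SE 0.19, adjusted p = 0.0234). Of 10 tested in the Pkd2 model 1 passed, the central-pair gene Spag6l, chosen after its values were seen, which rose by 1.30 (SE 0.31, adjusted p = 0.0317) at levels under 3 CPM. In the Pkd2 model Dnah11 had 16.5, 13.8 and 24.0 CPM in WT and 19.6, 12.8 and 16.9 in KO, which overlapped. Spag6l overlapped in the Pkd1 model, with 2.02, 2.24 and 1.47 CPM in WT and 2.29, 1.72 and 1.68 in KO. The median log2 fold change of the list was 0.11 and 0.00.

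The Hedgehog pathway, whose signal runs through the cilium, had 9 genes tested. Of these 2 passed as lower in the Pkd1 model, and 1 as higher and 1 as lower in the Pkd2 model. Their median log2 fold change was -0.13 (Pkd1) and 0.03 (Pkd2). The receptor Ptch1, which is also a target of the pathway, fell in both models. It had 41.3, 67.8 and 19.7 CPM in WT and 5.92, 7.11 and 8.61 in KO kidneys of the Pkd1 model, with a log2 fold change of -2.57 (SE 0.41, adjusted p = 0.0121). The Pkd2 model had 38.1, 31.2 and 30.4 CPM in WT and 21.7, 25.2 and 23.1 in KO, with -0.51 (SE 0.12, adjusted p = 0.0272). KO lay below WT without overlap in both. In the Pkd1 model these groups also differ in sex, and Ptch1 was not followed through the alternative fits. Ptch1 also varied among WT kidneys, down to 14.9 CPM in the Pkd2 library at P3 that stood apart. The effector Gli3 rose in the Pkd2 model by 0.53 on the log2 scale (SE 0.09, adjusted p = 0.0113).

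Cilia are resorbed when cells divide, and a list of cilium disassembly genes was therefore read with one of proliferation genes. Of 7 disassembly genes 4 were tested. Aurka, Nedd9, Hdac6 and Kif2a were under 10 counts in most libraries, a stricter floor than that of the tests. Of the 4 tested 1 passed in each model, the mitotic kinase Plk1, which rose by 0.71 (SE 0.18, adjusted p = 0.04) in the Pkd1 and 0.73 (SE 0.15, adjusted p = 0.0175) in the Pkd2 model. The median log2 fold change of the disassembly genes tested was -0.08 (Pkd1) and 0.42 (Pkd2). Of 8 proliferation genes tested 3 passed as higher in the Pkd1 and 6 in the Pkd2 model, and 0 passed as lower. Their summed level was 803 to 1050 CPM in WT and 1110 to 1240 in KO kidneys of the Pkd1 model, and 630 to 897 and 1080 to 1220 in the Pkd2 model. With age in WT kidneys 7 of 8 proliferation genes passed as lower in the Pkd1 and 8 of 8 in the Pkd2 model. Over all transcripts 17.9% and 19.2% passed with age. Whether cell division has a part in the levels of the cilium genes was not tested.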

How the data were processed

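Kidney RNA of 36 mice was sequenced. Per the labels and the paper's methods the authors mapped reads to mm10 with TopHat2 2.1.0 after CASAVA 1.8.2 and counted with HTSeq (defaults, RefSeq), and the table they deposited gives raw read counts per transcript. Strandedness is not given in the sources used here, so antisense and overlapping genes are uncertain.

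Of 29996 rows, 28974 were paired with a gene symbol through RefSeq tables of GRCm38.p6, the assembly of mm10. A transcript entered a model's tests when 3 or more of that model's 18 libraries reached 10 counts. Tests were edgeR's quasi-likelihood F with TMM scaling, and p values were adjusted over all tested transcripts (Benjamini-Hochberg, 0.05). KO and WT of a day used 6 libraries, age the 9 WT libraries of a model, and interactions 18, or 12 for the models at P7. SE is the log2 fold change over the square root of F. CPM are on 1 TMM scale over all libraries. The tools were edgeR 4.0.16 and DESeq2 1.42.0 under R 4.3.3, with pandas 2.3.3 and matplotlib 3.10.9 under Python 3.11.15. Only the KO test of the Pkd1 model at P7 was run on simulated counts, with edgeR, DESeq2 and the replicate block.

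The members and gene lists were chosen with earlier results of these data known. Genes given with values are those that passed a KO, interaction or age test, the highest and lowest per kilobase of each role group, of the other cilium lists the 3 with the smallest adjusted p at P7 (1 of them is not reported here), and the checks of the labels. Further members were named after their values were seen. Replicate numbers come from the labels, and controls were littermates, without a statement of which mice share a litter. Same-numbered KO and WT libraries deviated together in the Pkd1 model at P1 (correlations across transcripts 0.264 to 0.584), and not in the other 5 comparisons. Chi-square per transcript between replicates was 5.15 to 64.0, so the spread between libraries, which may be technical, and not counting error set the precision. RLE factors, DESeq2, no filter, summed rows, GC and length offsets, a replicate block, a Y-linked term, joint fits and leaving out libraries were the alternatives.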

Additional observations from a re-analysis of the deposited data

Results flagged for a closer look

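The KO effect of 2 cilium genes differed between P7 and P1 by edgeR's test of the difference, in 3 results. For Dcdc2a the effect at P7 exceeded that at P1 by 1.22 on the log2 scale in the Pkd1 model (SE 0.16, adjusted p = 0.000692) and by 1.25 in the Pkd2 model (SE 0.25, adjusted p = 0.0197). For Kif3b it differed by -0.85 in the Pkd1 model (SE 0.18, adjusted p = 0.0126). After adding a term for Y-linked reads the Pkd1 differences were 1.23 for Dcdc2a and -0.59 for Kif3b, with adjusted p values of 0.663 and 0.883.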

How the results depend on the processing

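No direction of a called result turned under any alternative. DESeq2 moved the genes called in the Pkd1 model at P7 from 2 to 4, those with age in WT kidneys from 1 to 2 (Pkd1) and from 3 to 5 (Pkd2), those of the KO effect between days in the Pkd2 model from 1 to 2, and those of the comparison of models from 0 to 1. Fitting all 18 libraries of a model together gave 7 genes for Pkd1 at P7 and 2 and 10 with age. The Y-linked term gave 0 for Pkd1 at P7, 8 with age in the Pkd2 model, and 0 between days in both models. GC and length offsets gave 1 for Pkd2 at P7 (Tulp3 lost) and 0 with age in the Pkd1 model, no low-count filter gave 0 there, and RLE factors or summed rows gave 2 between days in the Pkd2 model.

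With the replicate block the counts were 1 for Pkd2 at P7, 0 with age in the Pkd1 model and 0 between days in the Pkd2 model, while those between days in the Pkd1 model went from 2 to 3 with Arl3. The block changed no other count of cilium genes.

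Leaving out 1 library gave 1 to 5 genes for Pkd1 and 1 to 2 for Pkd2 at P7, 0 with age in the Pkd1 and 1 to 4 in the Pkd2 model, 2 to 6 and 0 to 2 between days, and 0 to 3 between models. The counts of 5, 6 and 3 came without WT replicate 3 of the Pkd1 model at P7. Without the Pkd2 WT library of P3 that stood apart 4 passed with age, as also without 2 other libraries, and 1 passed between models without KO replicate 3 of the Pkd1 model at P7. At P1 and P3 every fit gave 0. The calls over all transcripts moved more. For Pkd1 at P7 they went from 1686 to 2763 with DESeq2, 704 with the block, 3882 in the joint fit and 6 with the Y-linked term. With age in the Pkd1 model the Y-linked term gave 1012 against 2248. Between days in the Pkd1 model 971 became 1651 with DESeq2 and 0 with the Y-linked term, and in the Pkd2 model 164 became 491 with DESeq2 and 78 with the block. DESeq2 gave 248 against 1 for Pkd1 at P3 and 406 against 0 between models. Leaving out 1 library gave 1374 to 2567 with age in the Pkd1 model and 1099 to 3470 against 2431 in the Pkd2 model, the lowest without WT replicate 1 of P7 and WT replicate 2 of P1. Between days it gave 314 to 2182 for Pkd1 and 89 to 338 for Pkd2, and between models up to 1449, without WT replicate 3 of the Pkd1 model at P7. The cause of these shifts was not tested.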
